A study of Homo sapiens with 2 samples.

Results

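Albumin (ALB), the fetal and tumour markers of the liver, and a group of other hepatocyte markers were examined in HepG2 cells treated with hawk tea extract (HTE). The group holds 10 genes, ALB, TTR, SERPINA1, AHSG, AFP, H19, DLK1, GPC3, EPCAM, and SPINK1. A probe belonged to the group when it was not a control probe on either array and its RefSeq transcript was one of these genes. This gave 13 of the 50532 probes, and the 10 genes stand among 23752 genes and unnamed transcripts that could be measured. The rule uses gene names and no measured value, but the genes were listed with earlier results of these data known. After HTE, SPINK1 was 2.56-fold higher, H19 was 1.98-fold lower by its brighter probe and 3.67-fold lower by its dimmer one, and the other 8 genes lay between log2 ratios of -0.19 (AFP) and 0.34 (EPCAM).

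The data are Agilent SurePrint G3 arrays of human transcripts, labelled with Cy3 alone, 1 for each condition. The control array holds RNA of HepG2 cells given the solvent dimethyl sulfoxide (DMSO, 1 per mille) for 24 h, and the treated array holds RNA of HepG2 cells given HTE for 24 h. The sample label gives 200 μg/mL HTE, whereas 300 is the dose in the deposited file's name and in the study's text, so the dose is not settled here. HTE is an extract of hawk tea, a plant drink, that the study examined for lowering cholesterol. HepG2 is an established line from a human liver tumour, and it is the one cell line on both arrays. With 1 array per condition there is no test between the conditions and no p value, and array and treatment cannot be told apart. In bulk RNA, fewer cells of a kind and less RNA per cell cannot be told apart either.

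As background, ALB is the main plasma protein made by adult hepatocytes, and AFP, its neighbour in the same gene cluster, is the main plasma protein of the fetal liver. AFP is silenced after birth and comes back in many liver tumours, as do the imprinted growth regulators H19 and DLK1 and the surface proteoglycan GPC3. HepG2 is known for expressing adult and fetal markers side by side, which makes the line a common system for the switch between ALB and AFP.

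The promoters of ALB and AFP are shown because they are the classic pair of this switch, and those of H19 and SPINK1 because these genes had the largest ratios. The sequences are the 250 bases before the annotated start, from RefSeq on build GRCh38.p14, written 5′ to 3′ on the strand of the gene. The table of promoters held 6 of the 10 genes (ALB, AFP, H19, SERPINA1, AHSG, and SPINK1). Capitals mark matches, on either strand, to the core promoter element bound by the TATA-binding protein (TATAAA), to the element bound by nuclear factor Y (CCAAT), and to the AP-1 site (TGANTCA).
ALB promoter, chr4:73404037-73404286, plus strand: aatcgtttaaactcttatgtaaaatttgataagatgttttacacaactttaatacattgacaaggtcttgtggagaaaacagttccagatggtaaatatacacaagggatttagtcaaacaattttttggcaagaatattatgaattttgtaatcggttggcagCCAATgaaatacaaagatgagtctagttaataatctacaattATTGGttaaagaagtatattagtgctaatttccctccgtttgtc
AFP promoter, chr4:73435971-73436220, plus strand: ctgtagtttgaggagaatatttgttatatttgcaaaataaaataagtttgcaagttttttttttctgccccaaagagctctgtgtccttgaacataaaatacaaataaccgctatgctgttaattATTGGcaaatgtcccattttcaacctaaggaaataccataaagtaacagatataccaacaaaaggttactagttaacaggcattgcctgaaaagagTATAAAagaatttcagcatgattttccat
H19 promoter, chr11:2001267-2001516, minus strand: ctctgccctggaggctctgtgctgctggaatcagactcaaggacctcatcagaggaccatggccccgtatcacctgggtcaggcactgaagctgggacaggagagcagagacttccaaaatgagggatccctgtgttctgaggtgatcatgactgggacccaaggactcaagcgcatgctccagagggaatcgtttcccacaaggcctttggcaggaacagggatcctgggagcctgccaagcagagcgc
SPINK1 promoter, chr5:147831672-147831921, minus strand: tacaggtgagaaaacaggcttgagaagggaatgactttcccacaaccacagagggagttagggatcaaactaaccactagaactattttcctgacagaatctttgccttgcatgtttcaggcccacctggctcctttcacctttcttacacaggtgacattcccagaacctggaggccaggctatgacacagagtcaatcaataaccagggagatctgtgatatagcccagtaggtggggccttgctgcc
In the ALB window, CCAAT lay at positions -86 to -82 from the start, and its reverse complement ATTGG at -44 to -40. In the AFP window, ATTGG lay at -125 to -121 and TATAAA at -29 to -24. No match to these motifs was found in the windows of H19, SPINK1, SERPINA1, and AHSG. Over all 35116 promoter windows of the table, cut to the same length, TATAAA was in 10.7%, CCAAT in 32.0%, and TGANTCA in 6.57%. These matches describe the letters of the windows, and the arrays hold no measurement of binding or of the promoters.

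On the DMSO array 60.6% and on the HTE array 56.6% of the spots that are not controls were well above background, no spot was saturated, and both arrays were on 1 slide and in 1 scan. All 11 hepatocyte genes set as a check of the line (apolipoproteins, fibrinogens, TF, RBP4, HNF4A, FOXA2) were well above background on both arrays, with summed signals of 769068 on the DMSO array and 689547 on the HTE array. Of markers of other cells, 3 of 6 fibroblast genes stood well above background in DMSO and 2 in HTE (summed signals of 1530 and 1312), and 2 of 5 endothelial genes were on both (1059 and 366). Of the blood cell genes with a probe, 4 of 6 were well above background on both arrays (12661 and 12013), as were 1 of 4 squamous genes (134 and 517) and 3 of 5 intestinal genes (36768 and 36555). CD3E, HBB, CDH5, KDR, TEK, LUM, COL1A2, THY1, KRT5, TP63, KRT6A, LGALS4, and CDH17 were well above background on neither array. The part of these genes in the results below was not tested.

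Values are given first as the processed signal of each array, a background-subtracted brightness in scanner units. Log2 ratios of HTE over DMSO were taken after each array was divided by its own 75th percentile, which was 4020.0 in DMSO and 3570.3 in HTE, so a gene with an equal signal on both arrays has a ratio a little above 0. Each member probe is a single spot, and its error (±) is that of the scanner software, carried to the ratio. For bright member spots this error was the same share of the signal on both arrays, 10.0%, and gave ± 0.20 on a log2 ratio. It is thus not a spread measured on these spots. For scale, the SD of the log2 ratio had a median of 0.05 over replicate spots of 688 probes and of 0.16 over the probes of 3759 genes with several. None of these errors covers the variation between cultures.

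All 13 probes of the 10 genes were well above background on both arrays, so no ratio is a bound. Of the 10 genes, 1 was at least 2-fold higher (SPINK1) and 0 were at least 2-fold lower, 7 were above 0 and 3 below. Over all 23752 genes, 5.25% were at least 2-fold higher and 3.03% at least 2-fold lower. The median log2 ratio of the members was 0.13, against 0.00 over all genes. By the brightest probe of each gene, the 4 adult plasma proteins had a median of 0.20 (4 above 0), AFP, H19, and DLK1 a median of -0.19 (3 below 0), and GPC3, EPCAM, and SPINK1 a median of 0.34 (3 above 0). These counts rest on the grouping and on the probe, since GPC3 is a fetal marker too and both of its probes were above 0, as was the dimmer probe of DLK1. The directions are those after scaling to the 75th percentile. With no scaling TTR and GPC3 fell to the other side of 0, with quantile normalization ALB and GPC3 did, with scaling to the array median GPC3 did, and with scaling to spike-in RNA all but SPINK1 were below 0.

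**Figure D1:**
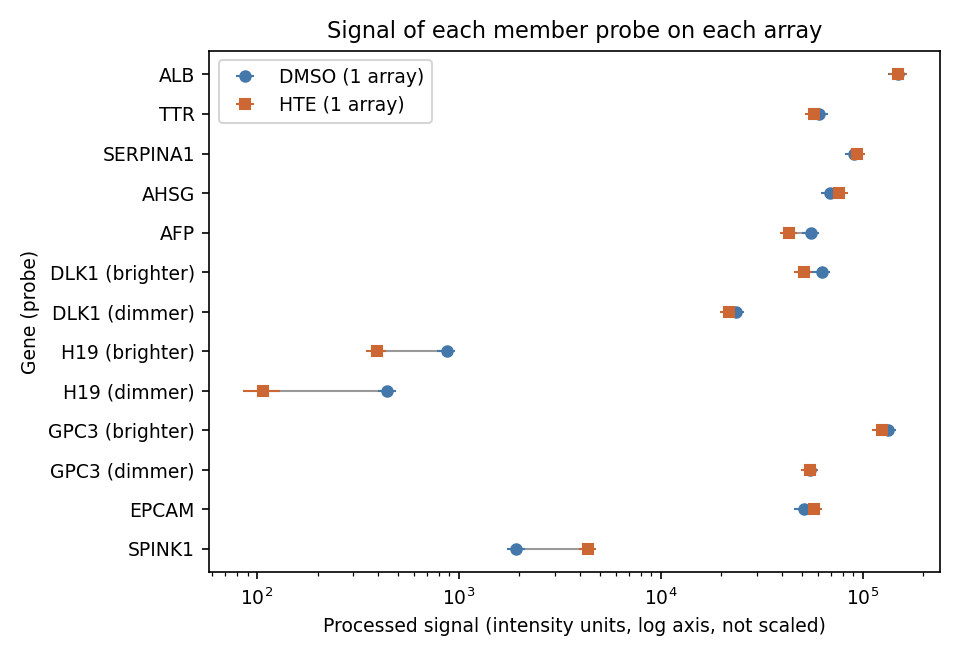
Processed signal of each member probe in scanner units (log axis) on the DMSO array and the HTE array, 1 spot per probe and array, with the scanner software's error as bars. SPINK1 is higher on the HTE array (4377 against 1928), both H19 probes are lower there, and for the other 10 probes the HTE signal is 0.779 (AFP) to 1.13 (EPCAM) of the DMSO signal.

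The first group is the plasma proteins of the adult hepatocyte. ALB, the carrier protein of the blood, had a signal of 149257 on the DMSO array and 150241 on the HTE array. These are nearly equal before scaling, and the log2 ratio was 0.18 ± 0.20. TTR, which carries thyroid hormone and the retinol-binding protein, had 61165 on the DMSO array and 57672 on the HTE array, a log2 ratio of 0.09 ± 0.20. Its signal was lower on the HTE array and its ratio above 0 only through the scaling. SERPINA1, the inhibitor of neutrophil elastase known as alpha-1-antitrypsin, had 91246 and 93776, a log2 ratio of 0.21 ± 0.20. AHSG, the mineral-binding fetuin-A, had 69253 and 76866, a log2 ratio of 0.32 ± 0.20. AHSG was the highest of the 4, at 1.6 times its error, and for each of the 4 the range of 2 errors on either side includes 0. Between 22.5% (AHSG) and 38.3% (TTR) of all genes had a higher ratio than these genes.

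The second group is the protein and RNA genes of the fetal liver. AFP, alpha-fetoprotein, had a signal of 55439 on the DMSO array and 43179 on the HTE array. The HTE signal was 0.779 of the DMSO signal, and after scaling the log2 ratio was -0.19 ± 0.20, with 31.9% of all genes lower. DLK1, a membrane protein of the Notch ligand family that marks hepatoblasts, had 62777 and 51090 by its brighter probe, a log2 ratio of -0.13 ± 0.20. Its dimmer probe had 23604 and 21942, a log2 ratio of 0.07 ± 0.20. The DLK1 probes stood on either side of 0 and differed by 0.19, less than the error of their difference, 0.29. The AFP ratio was below that of ALB by 0.37 with an error of 0.29, and below that of AHSG by 0.51 with an error of 0.29, so the ratios of AFP and ALB differed by little more than the error.

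H19, an imprinted long non-coding RNA that is abundant in the fetal liver and silenced after birth, had the lowest ratio of the 10 genes. Its brighter probe had a signal of 873 ± 88.3 on the DMSO array and 392 ± 43.5 on the HTE array. Its dimmer probe had 444 ± 46.5 and 107 ± 22.2. Both probes were lower on the HTE array, by more than their errors. The log2 ratio was -0.98 ± 0.22 by the brighter probe, with 3.14% of all genes lower, and -1.88 ± 0.33 by the dimmer one. The brighter probe, which stands for the gene by rule, lies just inside the 2-fold limit, and the mean of both probes, -1.43, lies past it. The probes agree in direction but not in size, since their ratios differed by 0.89 with an error of 0.40. On the HTE array the dimmer probe was close to the background limit, with a scaled log2 signal of -5.06 where the lowest spot well above background stood at -5.24. Spots around the 2 probes had median log2 ratios of -0.03 and 0.03, both close to 0. H19 was below DLK1 by 0.86 on the log2 scale, with an error of 0.30.

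**Figure D2:**
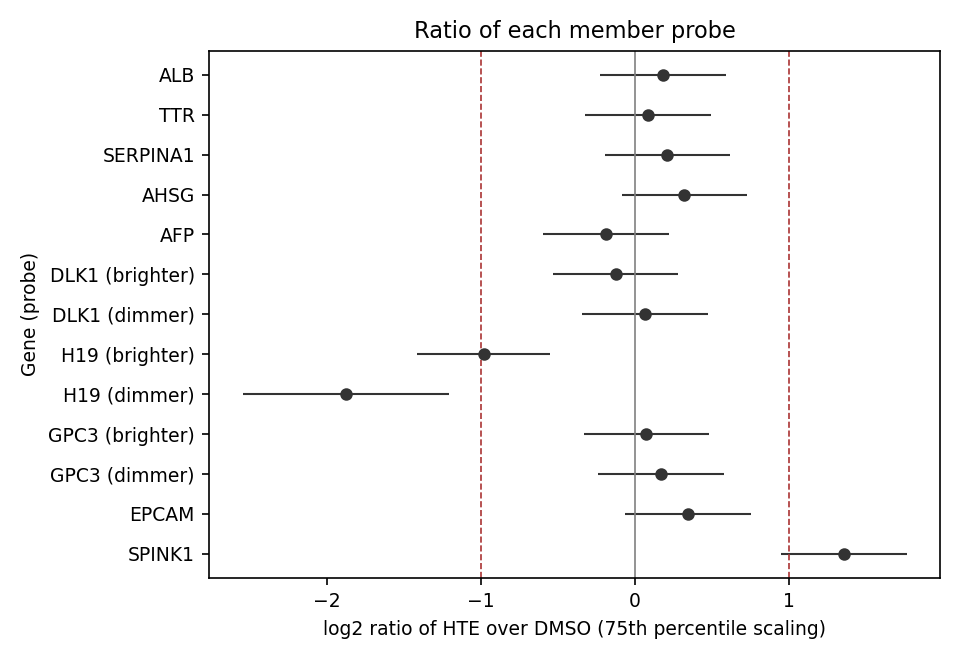
Log2 ratio of HTE over DMSO of each member probe after scaling to the 75th percentile, with dashed lines at 2-fold. The bars reach 2 of the scanner software's errors on either side. SPINK1 lies past 2-fold at 1.35, the H19 probes lie at -0.98 and -1.88, and the other 10 probes lie between -0.19 and 0.34.

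The third group is the markers of the cell surface and of tumours. GPC3, a glypican that binds growth factors at the surface of fetal and tumour liver cells, had 133106 on the DMSO array and 124495 on the HTE array by its brighter probe, a log2 ratio of 0.07 ± 0.20. Its dimmer probe had 55022 and 54954, a log2 ratio of 0.17 ± 0.20, and the probes differed by 0.09 with an error of 0.29. Neither probe was higher on the HTE array before scaling. Spots around the brighter probe had a median log2 ratio of -0.02, and those around the dimmer one 0.15. EPCAM, an adhesion molecule of epithelial and hepatic progenitor cells, had 51072 and 57491, a log2 ratio of 0.34 ± 0.20. EPCAM was 1.13-fold higher before scaling and 1.27-fold after, at 1.7 times its error. Of all genes, 21.4% had a higher ratio. Spots around EPCAM had a median log2 ratio of 0.17, and with this subtracted its ratio was also 0.17.

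SPINK1, a secreted inhibitor of trypsin that many liver tumours make, was the only member past 2-fold. It had a signal of 1928 ± 193 on the DMSO array and 4377 ± 438 on the HTE array. The HTE signal was the higher by 2.27-fold before scaling and 2.56-fold after, a log2 ratio of 1.35 ± 0.20. This ratio is 6.6 times its error, and the range of 2 errors on either side runs from 0.94 to 1.76. Of all genes, 2.63% had a higher ratio. Spots around SPINK1 had a median log2 ratio of 0.07. SPINK1 was above EPCAM by 1.01 and above SERPINA1, the other protease inhibitor of the group, by 1.14 on the log2 scale, each with an error of 0.29. SPINK1 has 1 probe and 1 spot on the array, so no second spot bears on it.

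The 8 genes other than H19 and SPINK1 all gave bright spots, and bright spots seldom differed between the arrays. Among the 1076 genes at least as bright as the dimmest of these 8 genes, a limit chosen after the values were seen, 2 were past 2-fold (0.186%), NUPR1 and 1 unnamed transcript. The 5th and 95th percentiles of their log2 ratios were -0.24 and 0.40, a range that holds all 8 members, and their median was 0.08. Among the 19924 dimmer genes that both arrays measured above background, 7.62% were past 2-fold, and the same percentiles were -0.84 and 0.95. The 2 members with large ratios, H19 and SPINK1, are among these dimmer genes.

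**Figure D3:**
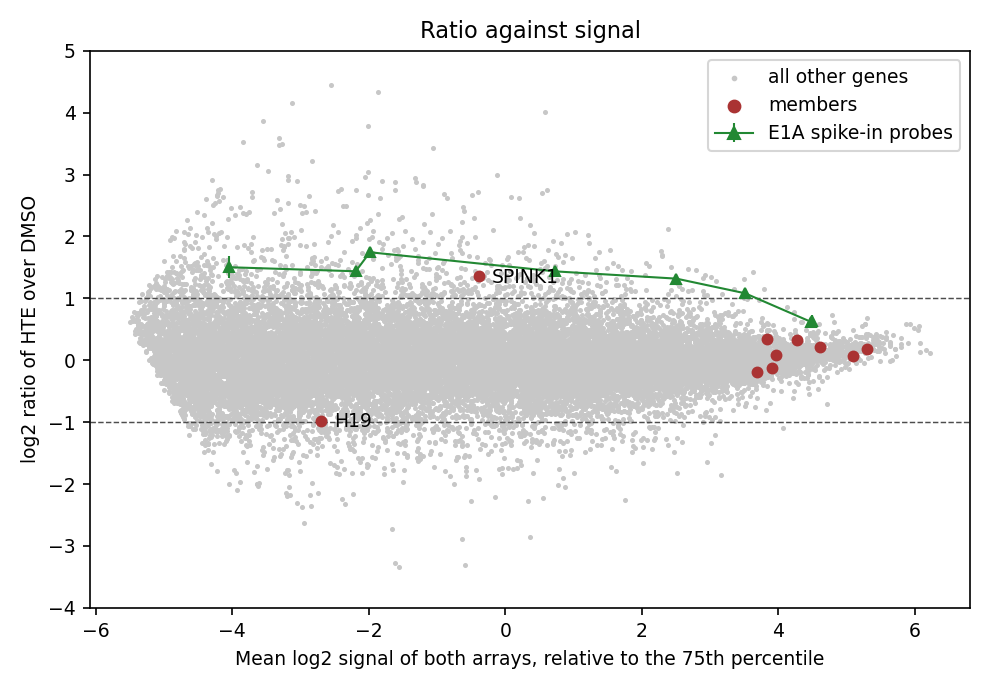
Log2 ratio of HTE over DMSO against the mean scaled log2 signal of both arrays for all genes well above background on both (grey), the members (coloured) and the spike-in probes. The 8 bright members lie at the right, where the genes spread between -0.24 and 0.40 (5th to 95th percentile) and the spike-in ratios are smallest.

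The ratios of spike-in RNA (E1A), added to each sample in the labelling, also varied with brightness. This RNA was brighter on the HTE array in all 8 spike-in probes used, each with 30 to 35 spots. The unscaled log2 ratio was 1.33 ± 0.18 (SD over 33 spots) for the probe with a DMSO signal of 144, 1.26 ± 0.04 at 4047, 0.91 ± 0.04 at 31494, and 0.46 ± 0.10 at 72940. The ratio was thus smaller for the brightest spike-in probes than for the others. On the DMSO array, the signals of ALB, SERPINA1, and the brighter GPC3 probe were above those of every spike-in probe used. The part of this dependence in the ratios of the 8 bright members was not tested. The scaling to spike-in RNA took a single value from every gene, the median over all spike-in spots, and not the ratio at each gene's signal. It gave H19 and SPINK1 log2 ratios of -2.32 and 0.02. Their signals lie in the range where the spike-in ratios ran from 1.26 to 1.57, all above that single value. The unscaled log2 ratio of SPINK1, 1.18, was below all of these, so its sign under this scaling depends on the spike-in probes used.

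**Figure D4:**
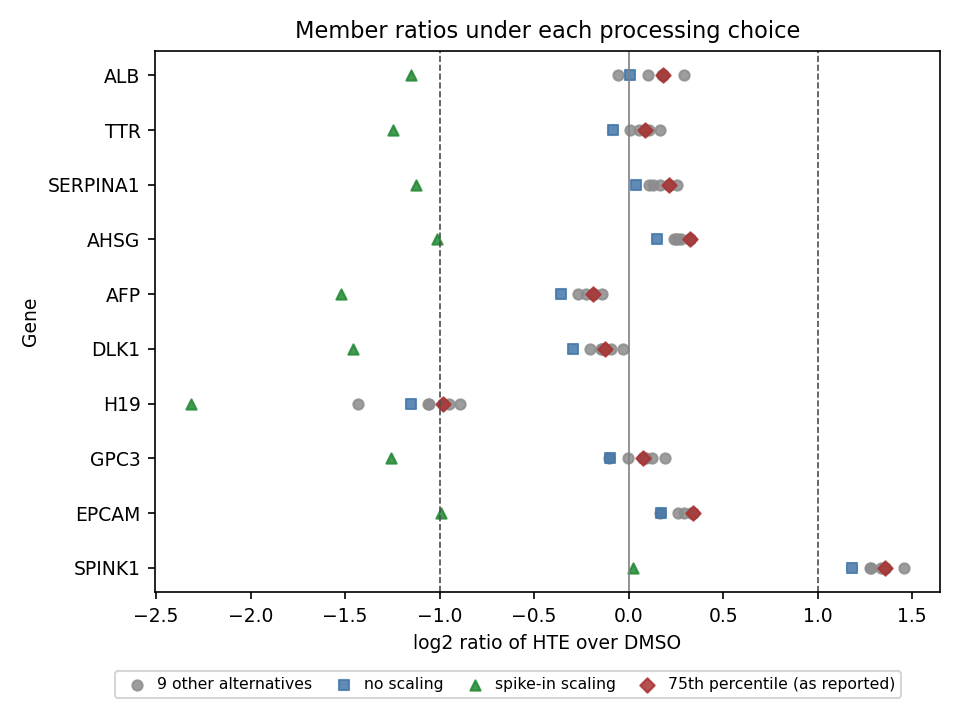
Log2 ratio of each member gene under the scaling to the 75th percentile and under the 11 other ways of processing the arrays. H19 stays between -1.43 and -0.89 and SPINK1 between 1.18 and 1.46 except with scaling to spike-in RNA, which lowers every gene.

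AFM and GC, the other plasma protein genes of the albumin cluster, were examined because they are neighbours of ALB and AFP. AFM, which binds vitamin E, had a signal of 100.1 on the DMSO array and 24.6 on the HTE array. GC, the vitamin D-binding protein, had 85.9 and 35.7. Both passed the background limit on the DMSO array and missed it on the HTE array, and both were so near it that no fold can be given.

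Of 29 other plasma proteins secreted by the liver, 27 were measured, 14 of them below 0 and 12 above, with a median log2 ratio of -0.05. At least 2-fold lower were 3, FGA, HPX, and KNG1, and at least 2-fold higher were 2, ITIH1 and VTN. FGA, the alpha chain of fibrinogen, had 16423 on the DMSO array and 6736 on the HTE array, a log2 ratio of -1.11, and its other probes gave -1.25 and -1.38. HPX, which binds free heme, had 926 and 367, a log2 ratio of -1.16. It lay within the 2-fold limit at its highest among the alternatives, -0.91. KNG1, a kininogen, was named after its values were seen, because it was well above background on the DMSO array only, so that it was at least 3.67-fold lower. ITIH1, which binds hyaluronan, had 1243 and 2813, a log2 ratio of 1.35, and VTN, the adhesion protein vitronectin, had 1789 and 3265, a log2 ratio of 1.04. The signal of VTN was less than 2-fold higher before scaling, and 1.04 was its highest value among the alternatives. With scaling to spike-in RNA, VTN changed sign, to -0.29. ITIH1 was 0.02 at its lowest among the alternatives. Of the other 22 secreted proteins, GC entered with a bound of 0, so no fold can be given for it. The rest were within 2-fold, as were the 4 plasma proteins among the members.

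Of 23 other oncofetal and liver tumour markers, 22 were measured, 12 below 0 and 10 above, with a median of -0.05. The 1 gene past 2-fold was DKK1, a secreted inhibitor of Wnt signalling, with 43232 on the DMSO array and 10826 on the HTE array, a log2 ratio of -1.83. The highest was CD24, a surface glycoprotein of progenitor cells, at 0.92, which was below 0 with scaling to spike-in RNA. Of 17 imprinted genes of growth, the class to which H19 and DLK1 belong, 13 were measured, 6 below 0 and 7 above, with a median of 0.15. The 1 gene past 2-fold was PEG3, a zinc finger gene, with 22305 and 8879, a log2 ratio of -1.16, but its other probe gave -0.41 and the value was -0.79 at its highest among the alternatives. The highest was GRB10, an adaptor that restrains insulin signalling, at 0.80, which was below 0 with scaling to spike-in RNA. The median of the imprinted genes was below 0 in 3 of the 11 alternatives.

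Of the regulators of AFP and ALB, 20 of 20 were measured. Of these, 12 were below 0 and 8 above, with a median log2 ratio of -0.18, which stayed below 0 in the 11 alternatives. The 1 regulator past 2-fold was CEBPA, a hepatocyte transcription factor that activates ALB, with 27382 on the DMSO array and 10849 on the HTE array, a log2 ratio of -1.16. It lay between -2.50 and -1.13 over the 11 alternatives. The highest was ZBTB20, a repressor of AFP after birth, with 2662 and 4443, a log2 ratio of 0.91 and of 0.70 by its other probe, and it was below 0 with scaling to spike-in RNA.

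A list of 12 relatives and signalling partners of GPC3 and DLK1 held glypicans, SULF1, SULF2, DLK2, FZD7, and Notch pathway genes. All were measured and 0 were past 2-fold, with 7 below 0, 5 above, and a median of -0.10 (0.01 with the mean over all probes). The lowest was GPC6, another glypican, at -0.91 (-1.08 by its other probe), and the highest was HES1, a target of Notch, at 0.57, below 0 with scaling to spike-in RNA. Of 11 serine proteases, the class that SPINK1 and SERPINA1 inhibit, 6 were measured, 4 below 0 and 2 above, with a median of -0.07 (0.02 with normexp background correction). PRSS1, PRSS2, and PRSS3 (trypsins) and ELANE and PRTN3 (proteases of neutrophils) were well above background on neither array. CTSG, another protease of neutrophils, was so on both, with 194 on the DMSO array and 133 on the HTE array, a log2 ratio of -0.37. The 1 protease past 2-fold was PRSS8, a protease anchored at the epithelial surface, with 1860 on the DMSO array and 10153 on the HTE array, a log2 ratio of 2.62. It lay between 1.29 and 2.73 over the 11 alternatives, of which those for the filter and dim probes could not change it. The lowest was TMPRSS2, another protease of the epithelial surface, with 782 and 411, a log2 ratio of -0.76.

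**Figure D5:**
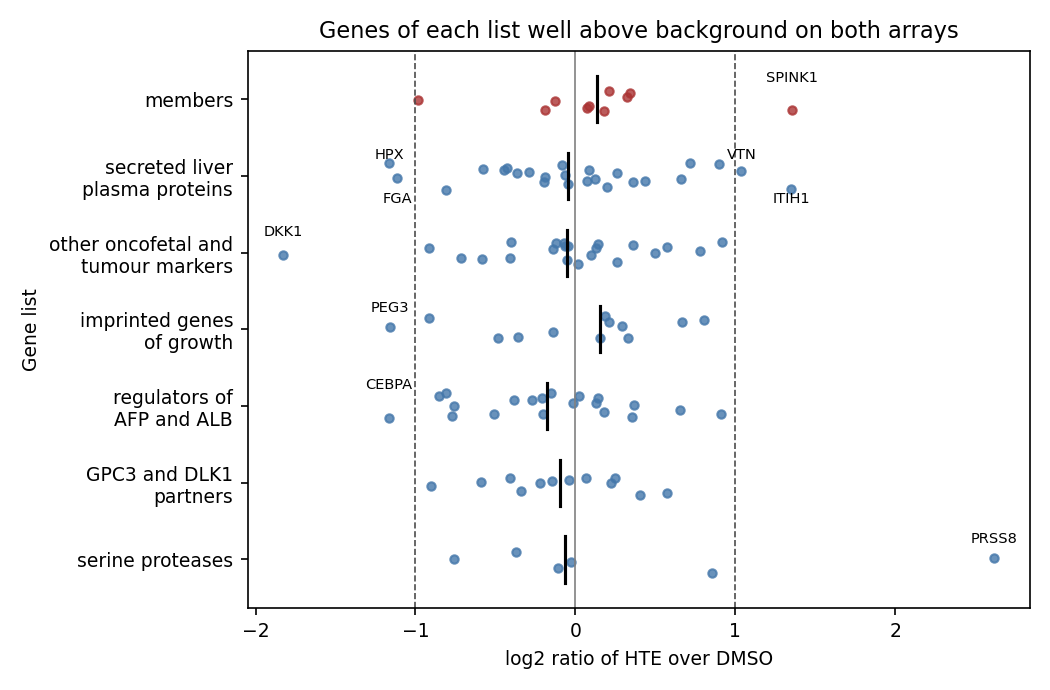
Log2 ratio of HTE over DMSO of the genes well above background on both arrays in the members and in each companion list, 1 point per gene, with dashed lines at 2-fold and a bar at the median of all measured genes of the list, bounds included. The medians of the companion lists lie between -0.18 (regulators of AFP and ALB) and 0.15 (imprinted genes of growth), and PRSS8 (2.62) and DKK1 (-1.83) are the farthest genes measured on both arrays.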

How the data were processed

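The samples were 1 array of DMSO-treated and 1 array of HTE-treated HepG2 cells, grouped by their labels. The authors deposited the Agilent Feature Extraction output of each array (version 11.5.1.1 in the file header, 10.7 in the labels). From this deposited output the processed signal, an intensity, was taken for each spot. It was already background-subtracted but not scaled between arrays. Its flags for background, saturation, and outliers were also used.

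Control and outlier spots were left out, log2 was taken, the 75th percentile of each array was subtracted, and spots of a probe were averaged. Of 50532 probes, 29680 passed the filter (at least 0.5 of their spots well above background on 1 array or both). A probe so on 1 array only entered with a bound. Genes were named through the RefSeq accession (28146 probes matched the table of GRCh38.p14) and represented by their brightest probe. Changed means at least 2-fold, the cutoff of the study's methods. The files use build hg19, so none of their coordinates are given.

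The genes named are the members with every probe, the highest, the lowest, and any gene past 2-fold of each list, and AFM and GC. The trypsins and neutrophil proteases of the list are named too, CTSG after its values were seen. The values of 1 listed gene are not reported here, and it was left out of the lists. The members and lists were chosen with earlier results of these data known. The alternatives changed the background correction (normexp with offset 50, on the median signal because the files hold no mean signal), the scaling, the filter, the treatment of dim, outlier, and several probes, the position on the array, and the cutoff. The arithmetic was tested on simulated data, which says nothing of the variation between cultures. The number of arrays limits the precision. The software was limma 3.58.1 (R 4.3.3) and, for all other steps and the plots, numpy 2.4.6, pandas 2.3.3, and matplotlib 3.10.9 (Python 3.11.15).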

Additional observations from a re-analysis of the deposited data

How the results depend on the processing

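Scaling to the spike-in RNA moved the median of all genes by -1.32 and left the members with a median log2 ratio of -1.20, 8 of them at least 2-fold lower and 0 at least 2-fold higher, among 17938 lower and 121 higher genes. The median of the members, 0.13, was -0.0019 with quantile normalization, 0.053 with scaling to the median and -0.038 with no scaling. H19 made the count of members at least 2-fold lower 1 with each of these 3, with the mean over all probes, and with a 1.5-fold cutoff, and SPINK1 dropped out (0 higher) with a 3-fold cutoff. The 1248 higher and 720 lower genes became 825 and 468 with normexp, 2390 and 1868 with no filter on dim probes (which moved the median of all genes by 0.21), 2953 and 2505 with a 1.5-fold cutoff, and 422 and 129 with a 3-fold cutoff. The lower genes were 1209 with no scaling and 1320 when dim probes kept their own value. Of the changed genes, 63.4% were higher, against 42.2% with no scaling (which moved the median of all genes by -0.16), 50.4% with own values of dim probes, and 0.670% with spike-in scaling. Other than with the spike-in RNA, H19 lay between -1.43 and -0.89 and SPINK1 between 1.18 and 1.46. AFP, DLK1, and H19 were below 0 in all 11 alternatives, but the dimmer DLK1 probe was at 0.07. The alternatives for the filter, dim probes, and outlier spots left every member at its reported value, so they bear on none of these signs. Those for the filter and dim probes also cannot move other genes whose brightest probe was well above background on both arrays. The cause of the shifts between alternatives was not tested. AFM and GC give no value when probes must be well above background on both arrays. No paired analysis was possible because each condition has a single array.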
